A study of Mus musculus with 6 samples.

Results

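The 46 genes described here act in the G2 and M phases of the cell cycle, as kinases, cyclins, checkpoint proteins, kinetochore and spindle components, cytokinesis factors and chromosome proteins. They were chosen by name, with earlier results of these data known, and all 46 were found by symbol among the 22271 Ensembl genes of the deposited count table. All 46 passed the filter on low counts, on 16 chromosomes, with 168 to 24646 reads per gene and library. RNA came from bone marrow cells of C57BL/6JRj mice that had been sorted by flow cytometry. In this tissue, 3 libraries were labelled CD27 low MOP and 3 were labelled CD27 high MODP, and the sample titles mark all 6 as WT. The series' title places a progenitor of macrophages and osteoclasts downstream of one that also gives dendritic cells, and the design sets MOP beside MODP. The titles also carry P4 on each MODP library, P5 on each MOP library and a number after WT, without saying what these stand for. Beyond this and CD27, the labels describe no sort gate, no age, and no animal behind a library. A p-value therefore weighs a difference against library-to-library scatter, part of which may be technical.

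Library totals ran from 10701425 to 15892640 counts. Cd27, the sorted receptor, stood at 4.56, 3.52 and 3.64 CPM (counts per 1000000, with TMM-scaled library sizes) in the MOP libraries, against 35.3, 38.9 and 38.6 CPM in the MODP libraries. Kit and Csf1r, the receptors for stem cell factor and M-CSF, were detected in all 6 libraries, at 138 ± 20.6 and 513 ± 46.5 CPM in MOP and 338 ± 33.8 and 300.2 ± 42.0 CPM in MODP (SD, n = 3 each). Replicate 2 of each group stood apart from the other libraries on the second principal component, which held 19.9% of the variance. Neutrophil markers, led by S100a9, summed to 3258 to 13011 CPM over the MOP libraries and 2428 to 18448 CPM over the MODP libraries, with replicate 2 highest in each group.

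Mitosis is driven by cyclin-dependent kinase 1 (Cdk1), which is switched on by A and B type cyclins and by Cdc25 phosphatases and is helped by the Polo and Aurora kinases. Sister chromatids attach to the spindle through kinetochores, and a checkpoint holds back the anaphase-promoting complex (APC/C), a ubiquitin ligase, until all are attached. The complex then marks cyclin B and securin for destruction, chromatids part and the cell divides. Progenitors in the bone marrow divide often, and the RNAs of most of these genes are known to build up in G2 and M and to be low in G1. In bulk RNA, a larger share of dividing cells and more RNA per dividing cell cannot be told apart.

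Mitosis genes were higher in MOP by a small amount. Of the 46, 22 rose in MOP and 24 did not pass edgeR's quasi-likelihood test at a Benjamini-Hochberg adjusted p of 0.05. The number lower in MOP was 0 with edgeR, 0 with DESeq2 and 0 at an unadjusted edgeR p under 0.05. Over all 12850 genes tested, 16.3% were higher and 14.9% were lower, so the share of members that were higher, 47.8%, stood well above the background and the share that were lower stood below it. The 22 rose by 1.12-fold to 1.54-fold, with a median of 1.22-fold, against a median of 1.42-fold over all genes that were higher. All 3 MOP libraries lay above all 3 MODP libraries for 27 members and below them for 0, against 23.8% and 23.8% of all genes tested. The median log2 fold change of the members was 0.18, that of all tested genes was -0.0075, and 40 members lay above 0 and 6 below it.

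Summed over the members, MOP libraries held 8894, 8968 and 9049 CPM, and MODP libraries held 7290.4, 7243 and 7775 CPM. The sums did not overlap and their means stood at a ratio of 1.21, or 1.15 without Mki67 and Top2a. Of the MODP libraries, replicate 3 was highest for 34 of the 46 members and for 16 of the 19 whose groups overlapped.

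The count depended on single libraries. It became 12 without MOP replicate 1, 12 without MOP replicate 3 and 11 without MODP replicate 1, when 9.75%, 12.2% and 11.2% of all tested genes were higher and 7.89%, 10.2% and 9.62% were lower. No member was lower there, nor without MOP replicate 2 or MODP replicate 3, when 10.3% and 9.92% of all genes were lower. Called in all 6 fits without a library, and in all 14 alternatives, were 11 members, namely Ccna2, Ccnb2, Cdc25b, Foxm1, Birc5, Cenpa, Kif23, Prc1, Anln, Racgap1 and Mki67. With the replicate number as a block (the blocked fit) the count was 28, with Plk1, Nek2, Espl1, Tpx2, Kif2c and Kif20a added, and 21.2% of all genes were higher and 19.8% lower. With the number in the titles as the block it was 24 (19.6% of all genes higher), and with no filter on low counts 21 (9.2% of all genes higher and 8.33% lower). Under upper-quartile scaling it was 16, with a median log2 fold change of 0.12 over the members and -0.06 over all genes, of which 13.2% were higher and 19.1% lower.

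**Figure D1:**
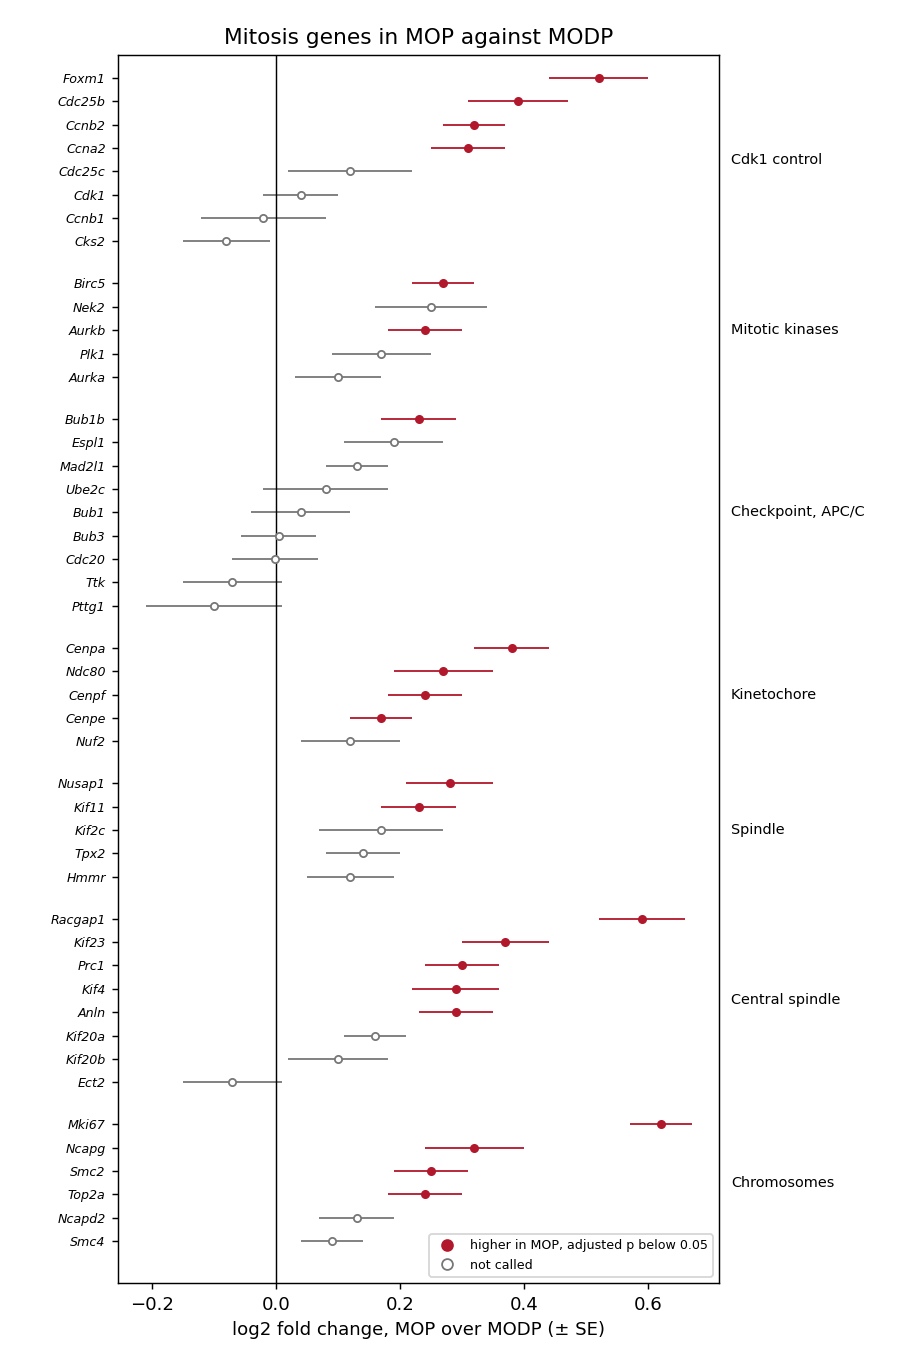
Log2 fold change (MOP over MODP) of each of the 46 mitosis genes with its standard error from the edgeR fit, grouped by role. Filled red points are the 22 genes past an adjusted p of 0.05, all to the right of 0, and open grey points are the 24 that did not pass, of which 6 lie left of 0.

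Markers of other marrow cells moved with the groups. CPM summed over 12 basophil and mast cell markers was 3489 to 5493 in MOP and 571 to 1182 in MODP, and 9 of the 10 tested markers were higher in MOP, or 4 in the blocked fit (Cpa3, Cd200r3, Il4 and Cyp11a1). The sum over 16 erythroid and megakaryocyte markers was 788 to 1069.7 CPM in MOP and 480.4 to 894 CPM in MODP, with 6 of 15 tested markers higher, or 5 higher and 1 lower in the blocked fit. That over 12 B cell and plasma cell markers was 768 to 1497 CPM in MOP and 553 to 653 CPM in MODP, with 0 of 12 called by edgeR, 2 called higher by DESeq2, and 2 higher and 1 lower at an unadjusted edgeR p under 0.05. The blocked fit called 4 of these 12 lower. The sum over 14 T and NK cell markers was lower, at 72.1 to 114 CPM in MOP and 237 to 323 CPM in MODP, with 8 of 13 tested markers lower, or 12 in the blocked fit. Most of that sum was Nkg7, at a mean of 85.4 CPM in MOP and 227 CPM in MODP. No marker on these lists was at 0 in all 6 libraries. The mast cell markers Mcpt4 and Tpsb2 were barely detected, with at most 1 and 2 reads in a library, and were not tested. The part of these cells in the mitosis gene result was not tested, and the same holds for each role group below. Without replicate 2 of both groups, where neutrophil markers were highest, 20 of the 46 members were higher and 0 were lower by edgeR, against 18.4% and 15.6% of all tested genes.

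Many genes of this kind carry a pair of promoter elements. One is the cell cycle genes homology region (CHR), whose usual letters are TTTGAA and which binds the MuvB complex with its partners. The other is the CCAAT box, which binds NF-Y. RefSeq promoter windows of GRCm38.p6, from 250 bases before to 50 bases after the transcript start, were found for 39 members (for Bub3, Ect2 and Prc1, which have 2 windows each, the first listed was used) and searched on both strands for TTTGAA or TTCGAA and for CCAAT, which can share at most an end base with them. With 1 window a gene, CHR letters stood in those of 30 of the 39 members (76.9%), against 14.1% of 9643 tested genes and 19.4% of all 27025 genes. CCAAT stood in 30 of the 39 (76.9%), against 39.0% and 37.9%, and both kinds stood together in 26 (66.7%), against 6.08% and 7.7%.

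Both kinds of letters were found among members that were higher and among members that did not pass. CHR letters stood in 16 of 19 windows of members that were higher in MOP and in 14 of 20 windows of members that did not pass. CCAAT stood in 15 of 19 and 15 of 20, and at least 2 CCAAT boxes in 6 of 19 and 13 of 20, a count chosen after it was seen and not tested. Aurkb, Ccna2, Cdc25c, Foxm1, Kif20a, Smc4 and Tpx2 had no window. The 6 stretches below run 5′ to 3′ from 150 bases before the start through the first 25 transcribed bases. Mki67, Racgap1, Kif23 and Ccnb2 are examples of members higher in MOP, and Cdc20 and Espl1 of members that did not pass without a block. All 6 carry both kinds of letters, as do 14 of the 19 windows of higher members and 12 of the 20 of members that did not pass. Capitals mark CHR letters (TTTGAA) and CCAAT boxes, which read ATTGG where they lie on the other strand.
Mki67 (chr7:135716355-135716529, minus strand): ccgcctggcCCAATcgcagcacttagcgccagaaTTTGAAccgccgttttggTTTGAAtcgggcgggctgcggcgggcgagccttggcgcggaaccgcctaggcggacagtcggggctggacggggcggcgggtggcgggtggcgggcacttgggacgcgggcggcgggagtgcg
Racgap1 (chr15:99651632-99651806, minus strand): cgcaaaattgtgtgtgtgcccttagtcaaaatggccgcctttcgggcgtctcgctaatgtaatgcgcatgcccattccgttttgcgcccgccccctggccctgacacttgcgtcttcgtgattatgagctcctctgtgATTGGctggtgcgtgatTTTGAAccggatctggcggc
Kif23 (chr9:61946775-61946949, minus strand): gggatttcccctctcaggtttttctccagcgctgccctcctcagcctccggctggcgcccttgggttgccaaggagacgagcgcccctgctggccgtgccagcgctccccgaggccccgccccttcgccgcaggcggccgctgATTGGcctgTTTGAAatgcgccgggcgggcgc
Ccnb2 (chr9:70421530-70421704, minus strand): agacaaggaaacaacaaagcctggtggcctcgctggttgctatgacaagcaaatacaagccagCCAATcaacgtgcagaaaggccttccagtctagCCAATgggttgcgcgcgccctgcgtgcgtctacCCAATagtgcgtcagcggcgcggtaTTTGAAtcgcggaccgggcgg
Cdc20 (chr4:118437319-118437493, minus strand): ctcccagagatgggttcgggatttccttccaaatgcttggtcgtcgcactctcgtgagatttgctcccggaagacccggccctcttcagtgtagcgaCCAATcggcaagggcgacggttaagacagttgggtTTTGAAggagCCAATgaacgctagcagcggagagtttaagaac
Espl1 (chr15:102296143-102296317, plus strand): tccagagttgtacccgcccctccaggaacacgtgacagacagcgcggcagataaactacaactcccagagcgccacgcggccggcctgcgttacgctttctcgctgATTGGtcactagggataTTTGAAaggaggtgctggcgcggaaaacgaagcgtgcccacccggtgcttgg
In the stretch shown, Ccnb2 has 3 CCAAT boxes ahead of its CHR letters, and a further CHR match of its window lies outside that stretch, at base -167 from the start. In that of Mki67, a CHR pair follows the box shown. In Racgap1 and Kif23, whose proteins work as a complex, a reversed box lies just ahead of CHR letters at the start of the transcript. A match of letters is a description of these windows and not a measurement of binding.

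The regulators of Cdk1 split into members that rose and members whose groups overlapped. Of 8, 4 were higher in MOP (Foxm1, Cdc25b, Ccnb2 and Ccna2), in all 14 alternatives, and 0 were lower. Foxm1, the forkhead factor that switches on G2 and M genes, stood at 169, 158 and 178 CPM in MOP and 122, 105 and 124 CPM in MODP. The groups did not overlap, and Foxm1 rose by log2 0.52 ± 0.08 (SE, edgeR adjusted p = 0.0018). Ccnb2, a B type cyclin that activates Cdk1, stood at 138, 143 and 142 CPM in MOP and 109, 118 and 112 CPM in MODP. Every MOP library was above every MODP library, by log2 0.32 ± 0.05 (SE, edgeR adjusted p = 0.003). Ccna2, the A type cyclin of S and G2, stood at 220.1, 233 and 229 CPM in MOP and 174, 179 and 198 CPM in MODP. It was 1.24-fold higher without overlap (log2 fold change 0.31 ± 0.06, edgeR adjusted p = 0.0075). Cdc25b, a phosphatase that removes the inhibitory phosphates of Cdk1, averaged 56.2 ± 2.06 CPM in MOP and 42.9 ± 4.04 CPM in MODP (SD, n = 3 each) and rose 1.31-fold.

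The other 4 regulators did not pass. Cks2, a small Cdk1 adaptor, stood at 70.1, 76.8 and 68.2 CPM in MOP and 70.9, 81.2 and 75.6 CPM in MODP. Its groups overlapped (log2 fold change -0.08 ± 0.07, edgeR adjusted p = 0.46). Ccnb1, the main mitotic B type cyclin, averaged 56.9 ± 4.91 CPM in MOP and 57.7 ± 6.96 CPM in MODP, and Cdk1 itself averaged 134 ± 8.16 and 130.2 ± 6.64 CPM (SD, n = 3 each). Their log2 fold changes were -0.02 ± 0.10 and 0.04 ± 0.06, and that of the phosphatase gene Cdc25c was 0.12 ± 0.10 (SE). The sign for Cdk1 turned under upper-quartile scaling, and that for Ccnb1 without MOP replicate 1 or MODP replicate 3. Of these genes, Ccnb1 shares 46.9% of its 31-base words with other annotated genes, mostly its pseudogene Ccnb1-ps, Cks2 shares 31.7% and Cdc25c 22.7%, so reads could be split or lost in counting. Over all members, 6 shared at least 20% of their words (these genes with Cdc20, Ube2c and Kif20a), and none of them passed with edgeR under TMM scaling without a block. Next below came Plk1 (19.2%), which did not pass, and Kif4 (16.9%) and Ccna2 (16.5%), which did. Whether shared sequence bears on the calls was not tested.

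**Figure D2:**
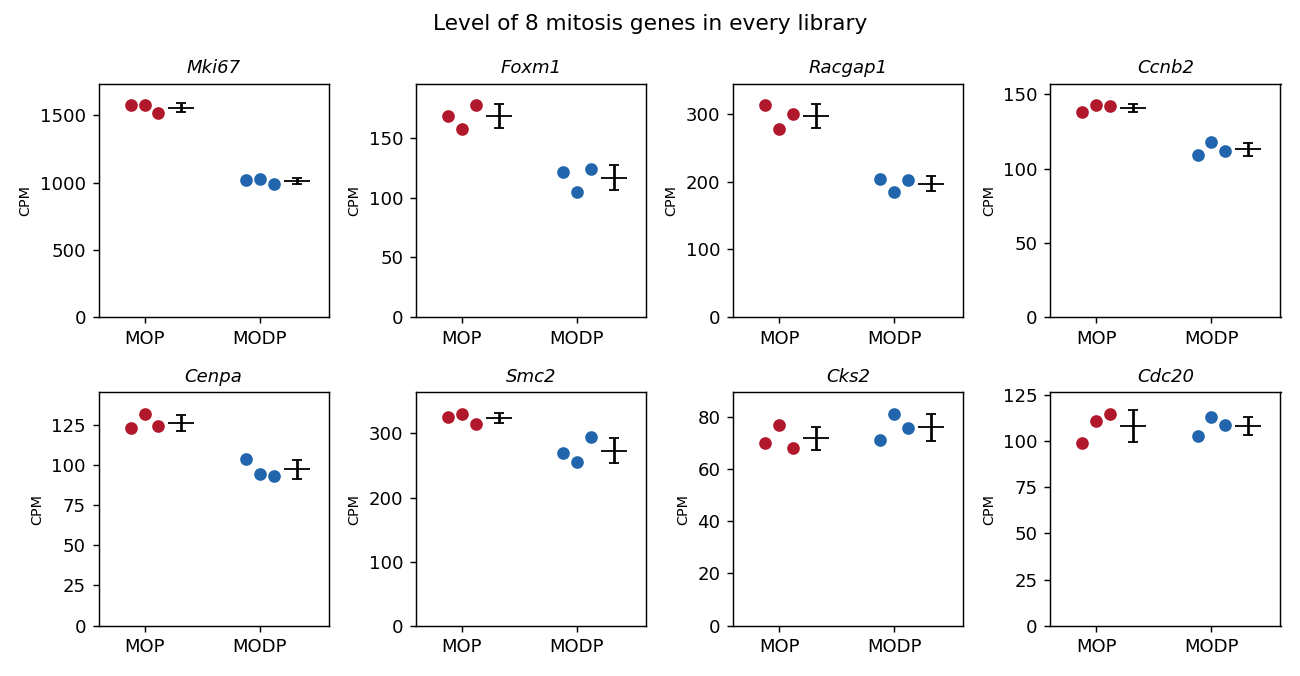
CPM of 8 mitosis genes in each of the 3 MOP libraries (red) and 3 MODP libraries (blue), with the group mean and SD as black bars beside the points. Mki67, Foxm1, Racgap1, Ccnb2, Cenpa and Smc2 show no overlap between the groups, with MOP higher, whereas the groups overlap for Cks2 and Cdc20.

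Of the mitotic kinases and the Aurora B partner survivin, 2 of 5 were higher in MOP (40.0%, against 16.3% of all tested genes). Birc5, which encodes survivin, stood at 121, 122 and 129 CPM in MOP and 101, 106 and 102 CPM in MODP. All MOP libraries were above all MODP libraries (log2 fold change 0.27 ± 0.05, edgeR adjusted p = 0.0058). Aurkb, the kinase that corrects faulty attachments, stood at 173, 166 and 178 CPM in MOP and 146, 137 and 155 CPM in MODP. It rose by log2 0.24 ± 0.06 (SE, edgeR adjusted p = 0.018), without overlap, and lost its call without MOP replicate 1, MOP replicate 3 or MODP replicate 1 and under upper-quartile scaling. Nek2, a kinase that parts the centrosomes, stood at 67.1, 71.4 and 72.7 CPM in MOP and 52.5, 58.1 and 67.2 CPM in MODP. The highest MODP library lay above the lowest MOP library, and the gene did not pass (edgeR adjusted p = 0.076), though it did in the blocked fit (edgeR adjusted p = 0.014) and without MODP replicate 3 (edgeR adjusted p = 0.019). Plk1, the Polo kinase, and Aurka, the Aurora kinase of the spindle poles, had log2 fold changes of 0.17 ± 0.08 and 0.10 ± 0.07 (SE) and did not pass. Plk1 passed in the blocked fit (edgeR adjusted p = 0.025), which made the count of higher members 4. The count was 1 under upper-quartile scaling and without MOP replicate 1, MOP replicate 3 or MODP replicate 1, and 3 without MODP replicate 3.

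The spindle checkpoint and anaphase genes showed the lowest median of the role groups. Of 9 members, 1 rose and 8 missed the threshold, with a median log2 fold change of 0.04. The share that rose was 11.1%, below the 16.3% of all tested genes. The higher member was Bub1b, which encodes the checkpoint protein BubR1, at 211, 206 and 215 CPM in MOP and 186, 164 and 189 CPM in MODP. Its groups did not overlap (log2 fold change 0.23 ± 0.06, edgeR adjusted p = 0.027), but the call was lost under upper-quartile scaling and without any MOP library or MODP replicate 1. Mad2l1, the checkpoint protein that binds and blocks Cdc20, stood at 109, 112 and 115 CPM in MOP and 104, 97.3 and 106 CPM in MODP. Those libraries did not overlap either, yet the difference did not pass (log2 fold change 0.13 ± 0.05, edgeR adjusted p = 0.11).

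Cdc20, the activator of the anaphase-promoting complex, stood at 98.8, 111 and 115 CPM in MOP and 103, 113 and 109 CPM in MODP. The groups overlapped fully, with a mean of 108 CPM in each (edgeR adjusted p = 0.99). Espl1, which encodes separase, the protease that cuts the link between sister chromatids, stood at 148, 139 and 145 CPM in MOP and 122, 116 and 141 CPM in MODP. MODP replicate 3 reached into the MOP range, and Espl1 did not pass (edgeR adjusted p = 0.095). It passed in the blocked fit (edgeR adjusted p = 0.027) and without MODP replicate 3 (edgeR adjusted p = 0.018). The checkpoint genes Bub1, Bub3 and Ttk had log2 fold changes of 0.04 ± 0.08, 0.0043 ± 0.06 and -0.07 ± 0.08 (SE), and those of Bub1 and Bub3 turned below 0 under upper-quartile scaling. Ube2c, the ubiquitin-conjugating enzyme of the complex, and Pttg1, which encodes securin, had log2 fold changes of 0.08 ± 0.10 and -0.10 ± 0.11 (SE). The count of higher members was 2 with the block and without MODP replicate 3. Pttg1 was low, at 13.4 ± 0.634 CPM in MOP and 14.4 ± 1.23 CPM in MODP (SD, n = 3 each).

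Among the kinetochore genes, 4 of 5 were higher in MOP and 0 were lower, with a median log2 fold change of 0.24. The share higher was 80.0%, against 16.3% higher and 14.9% lower over all tested genes. Cenpa, the histone H3 variant that marks centromeres, stood at 123, 132 and 124 CPM in MOP and 104, 94.6 and 93.1 CPM in MODP. This was the largest change of the group, without overlap (log2 fold change 0.38 ± 0.06, edgeR adjusted p = 0.0026). Cenpf, a large protein of the outer kinetochore, stood at 132, 137 and 136 CPM in MOP and 107, 121 and 116 CPM in MODP. Every MOP library was higher (log2 fold change 0.24 ± 0.06, edgeR adjusted p = 0.017). Ndc80, which grips microtubule ends, stood at 56.6, 58.3 and 57.1 CPM in MOP and 49.3, 50.9 and 43.0 CPM in MODP. The MOP libraries were close together and all above MODP (log2 fold change 0.27 ± 0.08, edgeR adjusted p = 0.03). The kinesin gene Cenpe rose by log2 0.17 ± 0.05 (SE, edgeR adjusted p = 0.045), and Nuf2, the partner of Ndc80, did not pass at log2 0.12 ± 0.08. Cenpa was the sole kinetochore gene called without any one MOP library or without MODP replicate 1. Without MODP replicate 3, and under upper-quartile scaling, 2 were called.

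Of the 5 spindle genes, 2 were higher in MOP (40.0%, against 16.3% of all tested genes) and 0 were lower (against 14.9%). Kif11, the motor that pushes spindle poles apart, stood at 293, 298 and 297 CPM in MOP and 238, 257 and 265 CPM in MODP. MOP libraries were all higher, by log2 0.23 ± 0.06 (SE, edgeR adjusted p = 0.016). Nusap1, which bundles microtubules near chromosomes, stood at 129, 134 and 141 CPM in MOP and 102, 115 and 117 CPM in MODP. It also rose without overlap (log2 fold change 0.28 ± 0.07, edgeR adjusted p = 0.016). Tpx2, the activator of Aurora A, stood at 203, 202 and 205 CPM in MOP and 182, 175 and 197 CPM in MODP. Its libraries did not overlap, but it did not pass (edgeR adjusted p = 0.093), while it did in the blocked fit (edgeR adjusted p = 0.04). The depolymerising kinesin gene Kif2c and Hmmr, a spindle and hyaluronan binding protein gene, had log2 fold changes of 0.17 ± 0.10 and 0.12 ± 0.07 (SE) and did not pass, and Kif2c was called with the block (edgeR adjusted p = 0.034). The count of 2 became 4 with the block, 1 without MOP replicate 1 or 2, and 0 without MOP replicate 3 or MODP replicate 1.

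Central spindle and cytokinesis genes held the highest median of the role groups, a log2 fold change of 0.29, and 5 of 8 were higher in MOP. That share, 62.5%, compares with 16.3% of all tested genes. Racgap1, a GTPase activator of the central spindle, stood at 314, 278 and 301 CPM in MOP and 204, 185 and 203 CPM in MODP. Its 1.51-fold rise left a wide gap between the groups (log2 fold change 0.59 ± 0.07, edgeR adjusted p = 0.00062). Kif23, the motor that forms centralspindlin with it, stood at 187, 173 and 179 CPM in MOP and 148, 127 and 142 CPM in MODP. Kif23 was 1.29-fold higher without overlap (edgeR adjusted p = 0.0042). Prc1, the bundler of antiparallel microtubules, stood at 169, 169.8 and 182 CPM in MOP and 136, 138 and 149 CPM in MODP. Every MOP library was above every MODP library (log2 fold change 0.30 ± 0.06, edgeR adjusted p = 0.0058).

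Anln, the contractile ring protein anillin, rose by log2 0.29 ± 0.06 (SE, edgeR adjusted p = 0.011), and the chromosome-bound kinesin gene Kif4 by 0.29 ± 0.07 (edgeR adjusted p = 0.015). Kif4 lost its call without MOP replicate 1, MOP replicate 3 or MODP replicate 1. Ect2, the exchange factor that Racgap1 recruits to the midzone, averaged 100.3 ± 5.90 CPM in MOP and 105 ± 9.40 CPM in MODP (SD, n = 3 each), with a log2 fold change of -0.07 ± 0.08 (SE). The partners Racgap1 and Kif23 passed and Ect2 did not, and the difference between these genes was not tested. The kinesin genes Kif20a and Kif20b had log2 fold changes of 0.16 ± 0.05 and 0.10 ± 0.08 (SE). Kif20a missed the threshold (edgeR adjusted p = 0.052) and passed in the blocked fit (edgeR adjusted p = 0.029) and with relative log expression size factors (edgeR adjusted p = 0.049), but 29.3% of its exon bases lie under the opposite-strand gene Cdc23. Among called members, this share was highest for Kif4 (15.1%, under Pdzd11), Ncapg (13.4%, Lcorl), Ccna2 (12.5%, Exosc9) and Prc1 (11.1%, Rccd1). What such overlaps add to the counts was not tested.

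Summed over their members, chromosome genes were the most abundant role group, led by Mki67 and Top2a. Mki67, which encodes Ki-67, the coat protein of mitotic chromosomes and the usual marker of dividing cells, stood at 1578, 1575 and 1519 CPM in MOP and 1019, 1028 and 989 CPM in MODP. No other member changed as much: it was 1.54-fold higher with tight libraries in both groups (log2 fold change 0.62 ± 0.05, edgeR adjusted p = 0.00023). Smc2, a core subunit of condensin, stood at 326, 331 and 315 CPM in MOP and 269, 256 and 294 CPM in MODP. The MOP libraries were all higher (log2 fold change 0.25 ± 0.06, edgeR adjusted p = 0.019). Ncapg, a regulatory subunit of condensin I, stood at 113, 114 and 112 CPM in MOP and 92.8, 79.4 and 99.1 CPM in MODP. It rose by log2 0.32 ± 0.08 (SE, edgeR adjusted p = 0.017).

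Top2a, the topoisomerase that untangles sister DNA, averaged 1005 ± 29.2 CPM in MOP and 852 ± 61.6 CPM in MODP (SD, n = 3 each) and rose by log2 0.24 ± 0.06 (SE, edgeR adjusted p = 0.022). Smc4 and Ncapd2, the other condensin subunits among the members, lay at 515 ± 14.3 and 549.6 ± 7.40 CPM in MOP and 483 ± 15.3 and 501 ± 26.4 CPM in MODP (SD, n = 3 each). Both had MOP libraries above all MODP libraries and did not pass (edgeR adjusted p = 0.21 and 0.1). All 6 chromosome genes were separated in this way and 4 passed (66.7%). Over all tested genes, 23.8% were separated with MOP above and 16.3% were called higher. The count of 4 became 2 under upper-quartile scaling and without MOP replicate 2 or 3, and 1 (Mki67) without MOP replicate 1 or MODP replicate 1.

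**Figure D3:**
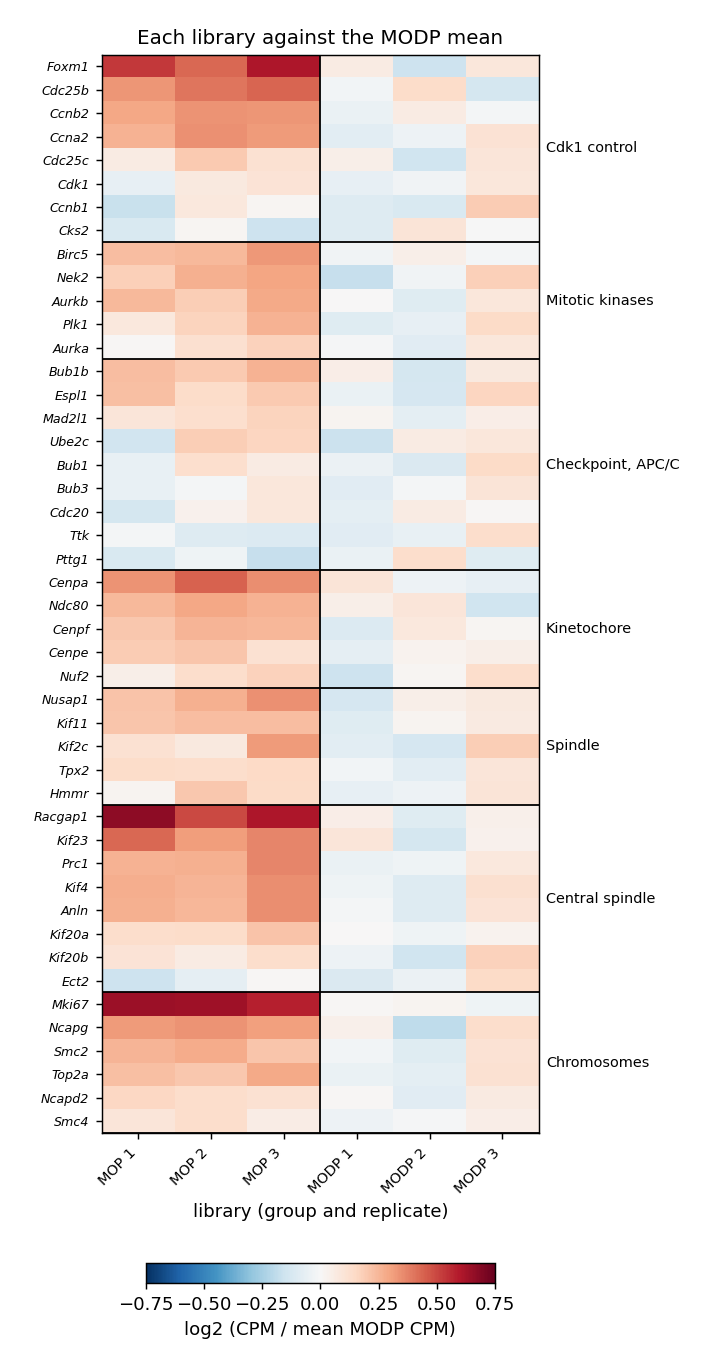
Log2 ratio of each library's CPM to the mean of the 3 MODP libraries, for the 46 mitosis genes (rows, grouped by role) in MOP and MODP libraries (columns). Racgap1 and Mki67 are among the 3 darkest red genes in each MOP library, while most checkpoint and APC/C genes are pale in all 6.

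Levels of different genes were compared per kilobase of merged exons in the GENCODE M21 annotation. Mki67 was highest in MOP, at 155 CPM per kilobase against 101 in MODP, and Cks2 was highest in MODP, at 104 in MOP and 109.7 in MODP. Top2a (112 in MOP and 94.6 in MODP) and Smc4 (98.9 in MOP and 92.6 in MODP) were the other two of the 4 highest in each group. Cdc25c was lowest, at 3.89 CPM per kilobase in MOP and 3.57 in MODP. In both groups Ccnb2 stood above Ccnb1 per kilobase, at 92.0 against 13.5 in MOP and 73.8 against 13.7 in MODP, with the limit that Ccnb1 shares nearly as many words with other genes as it has of its own.

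A wider list of mitosis genes was read beside the members. Of 80 further genes of the kinetochore, chromosomal passenger complex, condensins, kinesins and spindle, 23 rose in MOP (28.7%), 2 fell and 55 missed the threshold, with a median log2 fold change of 0.14. The condensin genes Ncapg2 and Ncaph stood at 214 ± 6.81 and 131 ± 3.48 CPM in MOP and 159 ± 5.97 and 97.3 ± 3.64 CPM in MODP (SD, n = 3 each). Their log2 fold changes were 0.44 ± 0.05 and 0.42 ± 0.05 (SE, edgeR adjusted p = 0.00088 and 0.00095). Dlgap5, a microtubule protein of the spindle, stood at 84.0, 84.0 and 82.0 CPM in MOP and 63.2, 66.2 and 61.8 CPM in MODP, or log2 0.39 ± 0.06 (SE, edgeR adjusted p = 0.0019). The lower genes were Bora, an activator of Aurora A and Plk1, and the microtubule destabiliser gene Stmn1, at 0.84-fold and 0.87-fold (edgeR adjusted p = 0.015 and 0.045). The blocked fit gave 29 higher and 2 lower. Bora and Stmn1 are named after their values were seen, and the count of lower genes was 0 without MOP replicate 1 or 3 and 1 without MOP replicate 2, MODP replicate 1 or MODP replicate 3.

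Subunits of the anaphase-promoting complex, which are known to vary little over the cycle, changed in both directions. They were listed with partners of the complex, such as Ube2s. Of the 17 genes on this list, 3 were higher and 3 lower in MOP, or 17.6% each, near the background. Cdc26 stood at 41.9, 40.1 and 40.3 CPM in MOP and 51.6, 53.6 and 52.6 CPM in MODP, and Cdc16 at 77.1 ± 2.66 CPM in MOP and 96.7 ± 2.70 CPM in MODP (SD, n = 3 each). Both subunit genes fell, by 0.37 ± 0.06 and 0.33 ± 0.06 on the log2 scale (SE, edgeR adjusted p = 0.0033 and 0.0037). Anapc11, the RING subunit, rose by log2 0.33 ± 0.07 (SE, edgeR adjusted p = 0.0095). The count of higher genes was 1 under upper-quartile scaling, with no filter on low counts and in 5 of the 6 fits without a library, and 2 without MODP replicate 2. The fits without a library gave 2 or 3 lower genes.

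Regulators of cell cycle transcription that passed were mostly higher in MOP. On a list of 26 genes of the E2F, pocket protein, Myb, MuvB and NF-Y families, with Trp53 and Cdkn1a, 9 rose in MOP (34.6%), 1 fell (3.85%) and 16 missed the threshold. Over all tested genes, 16.3% were higher and 14.9% were lower. Myb, the progenitor transcription factor, stood at 276, 324 and 322 CPM in MOP and 680.3, 613 and 754 CPM in MODP, and fell by 1.15 ± 0.09 on the log2 scale (SE, edgeR adjusted p = 0.00026). The repressors E2f7 and E2f8 stood at 49.0 ± 1.69 and 286 ± 24.1 CPM in MOP and 28.2 ± 1.53 and 173 ± 0.898 CPM in MODP (SD, n = 3 each). They rose 1.74-fold and 1.65-fold (edgeR adjusted p = 0.00035 for each). Mybl2, which encodes the MuvB partner B-Myb and is named after its values were seen, averaged 136 ± 2.51 CPM in MOP and 138 ± 9.81 CPM in MODP and did not pass (edgeR adjusted p = 0.88). Without MOP replicate 1 the count of higher genes was 6, and that of lower genes was 2 without MODP replicate 2 and under upper-quartile scaling. The blocked fit gave 11 higher and 2 lower, adding E2f4 and Cdkn1a as higher and Trp53 as lower.

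S phase genes were higher in part. Of 48, 19 rose in MOP (39.6%) and 0 fell by edgeR or DESeq2, 1 being lower at an unadjusted edgeR p under 0.05, with a median log2 fold change of 0.12. Ccne1, the cyclin of the entry into S phase, stood at 57.0, 61.1 and 54.9 CPM in MOP and 33.4, 27.0 and 28.8 CPM in MODP, a 1.94-fold rise (edgeR adjusted p = 0.00039). Rrm2, a ribonucleotide reductase subunit, rose 1.41-fold, and Slbp, which binds histone mRNA, 1.36-fold (edgeR adjusted p = 0.00046 and 0.00076). The blocked fit gave 22 higher and 1 lower (Exo1). Without MOP replicate 1 the count of higher genes was 8, and under upper-quartile scaling it was 12. Of 22 inhibitors and phosphatases of mitotic entry and exit, 2 were higher (Pkmyt1 and the phosphatase gene Ppp1ca), 2 fell (Atr and Cdc14a) and 18 missed the threshold. These are shares of 9.09% each, below the 16.3% and 14.9% of all tested genes, and the blocked fit gave 3 higher and 4 lower, adding Btg2 as higher and Wee1 and Atm as lower. Pkmyt1, a kinase that restrains Cdk1, stood at 101, 96.8 and 96.1 CPM in MOP and 83.4, 73.4 and 81.9 CPM in MODP (log2 fold change 0.30 ± 0.06, edgeR adjusted p = 0.0099). Atr, the kinase of stalled replication, fell by 0.37 ± 0.08 on the log2 scale (SE, edgeR adjusted p = 0.013). Without MOP replicate 1 this list had 0 higher and 0 lower genes by edgeR (3 and 2 at an unadjusted p under 0.05). Ppp1ca kept its call in 1 of the 6 fits without a library, that without MODP replicate 2, and lost it under upper-quartile scaling and with no filter on low counts.

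**Figure D4:**
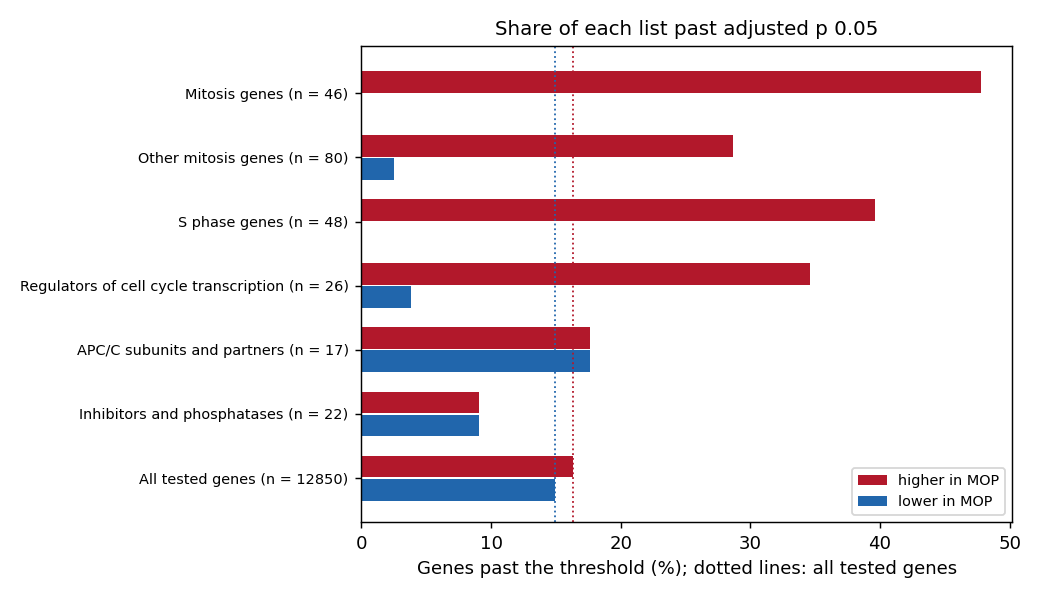
Percent of genes past an adjusted p of 0.05 in MOP against MODP, higher (red) and lower (blue), for the mitosis genes, 5 further cell cycle lists and all tested genes, with dotted lines at the shares of all tested genes. The mitosis genes stand at 47.8% higher and 0 lower, against 16.3% and 14.9% of all tested genes.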

How the data were processed

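TriZol RNA of sorted mouse bone marrow progenitors (3 MOP and 3 MODP libraries) went through a TruSeq kit, per the labels' protocols. Values deposited by the authors are whole-number read counts for each Ensembl gene. TopHat 1.4 and HTSeq appear in the submitters' processing notes. Build, annotation and strand setting were not given in those sources, so reads of overlapping genes on opposite strands cannot be told apart. Library totals were 10701425 to 15892640 counts.

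Symbols came from GENCODE M21, which matched 20840 of 22271 identifiers; the 1431 others held 0.816% of counts. CPM was computed with TMM-scaled library sizes. Genes passing filterByExpr (12850) were tested with edgeR 4.0.16 (robust quasi-likelihood, with no covariate beside the group), adjusting by Benjamini-Hochberg at 0.05. DESeq2 1.42.0 was an alternative. The test was checked on simulated counts of 12692 genes, of which 49 or 50 were changed at each of the folds 1.5, 2, 4 and 8. There it recovered 44.9% of genes changed 1.5-fold and 75.5% of those changed 2-fold, and 7.69% of its calls were false. Far fewer genes were changed there than the 2095 higher and 1913 lower in the data, so these rates need not hold for the reported calls. Words of 31 bases from each gene's longest transcript were looked up in the transcripts of other genes. Sequences are from RefSeq.

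The members and lists were chosen with earlier results of these data known. Values in every library were given, in each role group, for the 3 members with the smallest adjusted p and the one most abundant per kilobase. From each further list, up to 3 called genes with the smallest adjusted p were named.

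The libraries of each group are WT1, WT2 and WT1 by title, but 1, 2 and 3 by table column, as used here. Over 9351 genes, deviations from group means correlated at 0.59, 0.61 and 0.51 for equal column numbers and at -0.45 to 0.05 for others. Centring each group on its mean itself pushes some of these values below 0. The labels state no pairing, so the main fit and its p-values leave it out. Column numbers were taken as likely pairs, and a fit with them as a block is given where it changed a member's call or the count of a list.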

Additional observations from a re-analysis of the deposited data

How the results depend on the processing

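The members' direction as a set held: 0 members were lower in any of 14 alternatives, and their median log2 fold change was 0.12 to 0.24. The count of higher members was 11 to 22 without one library and 16 to 28 otherwise (28 with the replicate number as a block, 24 with the title number, 16 under upper-quartile scaling, 22 with DESeq2). The replicate block added 6 called members, named with the results, and changed no other member's call. Over all genes, the fits without a library gave 1281 to 2524 higher and 1036 to 2275 lower genes, against 2095 and 1913; upper-quartile scaling split them 1692 to 2452 and the replicate block 2724 to 2544. No called member changed sign in any alternative. Members near 0 that did not pass did, with log2 fold changes over the 6 fits without a library of -0.08 to 0.08 (Ccnb1), -0.04 to 0.05 (Bub3), -0.01 to 0.12 (Bub1), -0.05 to 0.06 (Cdc20), -0.00077 to 0.17 (Ube2c) and -0.12 to 0.0031 (Ect2). By setting, Cdc20 (-0.0014 as reported) was 0.0023 (relative log expression, without MODP replicate 3), 0.0002 (no filter), 0.06 (without MOP replicate 1), 0.03 (without MODP replicate 2), 0.01 (no replicate 2), 0.0025 (DESeq2), Bub3 -0.05 (upper-quartile scaling), -0.0025 (a 1 CPM filter), -0.04 (without MOP replicate 3, without MODP replicate 1), -0.0032 (without MODP replicate 2), Bub1 -0.01 (upper-quartile scaling, without MODP replicate 2), -0.05 (no replicate 2), Cdk1 -0.02 (upper-quartile scaling), Ccnb1 0.04 (without MOP replicate 1), 0.08 (without MODP replicate 3), Ube2c -0.00077 (without MODP replicate 1) and Ect2 0.0031 (without MODP replicate 3). The adjusted p of each of these was at least 0.56. Role group counts ranged over the alternatives from 4 to 4 (Cdk1 control), 1 to 4 (kinases), 0 to 2 (checkpoint), 1 to 4 (kinetochore), 0 to 4 (spindle), 4 to 6 (cytokinesis) and 1 to 4 (chromosomes). Further lists ranged from 16 to 29 higher (other mitosis), 8 to 22 (S phase), 6 to 11 (transcription), 1 to 3 (APC/C) and 0 to 3 (inhibitors), and from 0 to 2, 0 to 1, 1 to 2, 2 to 3 and 0 to 4 lower. Pttg1 and Cdc25c had the thinnest counts, from 168 reads in a library, and their differences were within the spread between libraries.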

Other observations

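Kinesin genes outside the members, a list chosen after values were seen, numbered 25 among the tested genes. Of these, 10 rose in MOP (40.0%), 3 fell (12%) and 12 missed the threshold, against 16.3% higher and 14.9% lower over all tested genes, and the fit with the replicate block gave 12 and 3. Of the 19 on no mitosis list, 7 rose (36.8%) and 3 fell (15.8%), so the share that fell was near that of all genes in both counts. Kif17, which carries cargo in cilia and dendrites, stood at 10.4, 9.20 and 9.77 CPM in MOP and 28.2, 22.2 and 30.2 CPM in MODP, with no overlap, and fell by 1.46 ± 0.13 on the log2 scale (SE, edgeR adjusted p = 0.00035). Kif1b, a carrier of organelles, stood at 127, 117 and 132 CPM in MOP and 77.5, 68.5 and 83.0 CPM in MODP, a 1.64-fold rise (edgeR adjusted p = 0.00068). Kif1c rose 1.53-fold (edgeR adjusted p = 0.0018).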
